A study of Rattus norvegicus with 8 samples.

Results

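Carbonic anhydrase genes were followed in hippocampal RNA from male rats of the Sprague Dawley strain, either in normoxia or after hypobaric hypoxia, low air pressure in a decompression chamber that simulates 25000 ft and leaves 8% effective oxygen. The 8 genes were Car2, Car4, Car8, Car9, Car10, Car11, Car12 and Car14, among 26214 gene names on the array. They were taken by the gene name that the array gives each probe. 6 were found under their own name. Car2 carries the name Ca2 there and was matched through its RefSeq transcript. No probe matched Car10, which was not analysed here. The other 7 genes have 1 probe each, and all 7 probes were well above background on all 8 arrays, so none of them passed the filter on dim probes through one group alone.

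Total RNA was labelled with Cy3 and hybridised to 8 single-colour Agilent arrays, 2 each for normoxia, day 1, day 3 and day 7 of exposure. The last group is named day 7 after its titles, although its exposure entry reads 5 days. All animals were of 1 strain and sex, no age is given in the labels, and RNA came from the hippocampal region as a whole, so that fewer cells of a type and less RNA per cell cannot be told apart. Whether the 2 arrays in each group hold RNA of different animals is not stated, and the p-values therefore reflect only how far these arrays differ, which may be technical.

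Carbonic anhydrases interconvert carbon dioxide and water with bicarbonate and protons. In brain the cytosolic enzyme Car2 is abundant in oligodendrocytes and in choroid plexus epithelium, while Car4, Car9, Car12 and Car14 are held in the cell membrane with the catalytic site outside the cell, where they buffer extracellular pH. Car9 and Car12 are textbook targets of the hypoxia-inducible factor HIF. Car8, Car10 and Car11 have lost catalytic activity: Car8 binds the inositol trisphosphate receptor Itpr1, a calcium release channel, and Car10 and Car11 are secreted partners of neurexins at synapses.

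Each value below is the signal of a 60-base probe, so the probes are given first. The probes of Car2, Car9, Car12 and Car14 are shown whole, from 5′ to 3′, and those of Car4, Car8 and Car11 by their first 30 bases. Capitals mark the first stop codon in the frame that starts at base 1, and are used for Car2 and Car12 alone.
Car2: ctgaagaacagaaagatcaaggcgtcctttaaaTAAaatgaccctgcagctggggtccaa
Car4: acctcaacctttagaggatatggcttctct
Car8: gtctccagagccaagtcatttatttccttt
Car9: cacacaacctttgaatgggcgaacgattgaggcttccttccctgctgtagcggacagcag
Car11: agtttcctcaccaggggaggggaattcacc
Car12: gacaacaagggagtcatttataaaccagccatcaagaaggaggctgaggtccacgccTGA
Car14: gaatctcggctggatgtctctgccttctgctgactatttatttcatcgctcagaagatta
In the array's annotation, on rat build rn4, the Car2 probe lies at chr2:88077739-88077798 on the minus strand and the Car14 probe at chr2:190684579-190684638 on the minus strand. The Car8 probe lies at chr5:21951285-21951344 on the minus strand and the Car9 probe at chr5:59991393-59991452 on the plus strand. Those of Car4, chr10:73237515-73237574, Car11, chr1:96172866-96172925, and Car12, chr8:71070670-71070729, are on the plus strand. Car2 is printed on 10 spots, Car14 on 1 and the other 5 genes on 2 each.

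Signals were scaled to the 75th percentile of each array and put on a log2 scale; a change is the difference of 2 group means on that scale, ± its standard error, with n = 2 arrays in each group. A gene was called higher or lower at an adjusted p under 0.05 in limma (Benjamini-Hochberg over 21296 genes). The 75th percentile itself fell from 2321 to 2684 signal units in normoxia to 1393 to 1407 on day 7. The median gene differed by 0.06 to 0.09 log2 between the arrays within a group. All 8 arrays were on 1 slide with 1 scan day, normoxia and day 1 in row 1 and day 3 and day 7 in row 2. The row therefore cannot be told apart from the step from day 1 to day 3. The same holds for every change of day 3 or day 7 against normoxia. Tissue markers did not all follow the hippocampal label. Of 12 striatal markers, 12 rose on day 1, and the sum of their linear levels was 53.5 to 54.1 there against 7.93 to 7.95 in normoxia. Of 13 hippocampal markers, 3 rose and 7 fell on day 1, 9 rose and 1 fell on day 3, and 5 rose and 5 fell on day 7. The summed level of these 13 was 62.8 to 64.8 in normoxia and 51.0 to 51.6 on day 1. It was 75.3 to 76.4 on day 3 and 78.4 to 80.7 on day 7. One of them, the dentate granule cell marker Prox1, was not well above background on any array of day 1 or day 7. The sum of 20 choroid plexus markers was 123 to 133 under normoxia, 2.63 to 2.68 at day 1, 165 to 177 at day 3 and 10.8 to 11.6 at day 7.

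The gene with the largest change was Car8, which fell 2.29-fold by day 3 and had regained part of its level by day 7. Car14 fell on day 7, and Car11 rose in all 3 exposed groups under this scaling. Car4 fell slightly on day 1 and rose on day 7, Car2 moved by no more than 0.22, Car12 was highest on day 1 and low on days 3 and 7, and Car9 was not called in any comparison. On day 1, 1 of 7 genes was called higher and 1 lower, against 35.5% of all genes called (15.3% higher, 20.2% lower). On day 3, 2 rose and 1 fell, against 50.3% of all genes (24.2% higher, 26.2% lower). On day 7, 3 rose and 3 fell, against 61.3% of all genes (31.5% higher, 29.7% lower). The 3 comparisons share the normoxia arrays. The median change of the 7 genes was -0.10 at day 1, -0.10 at day 3 and 0.10 at day 7, beside -0.07, -0.05 and -0.03 over all genes tested. Between day 1 and day 3, 1 gene rose and 2 fell (51.2% of all genes called, 28.2% higher and 23% lower), and between day 3 and day 7, 2 rose and 1 fell (42.4%, with 24.2% higher and 18.3% lower). The shares called were thus 2 of 7, 3 of 7 and 6 of 7 against normoxia, beside backgrounds that also grew from day 1 to day 7.

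**Figure D1:**
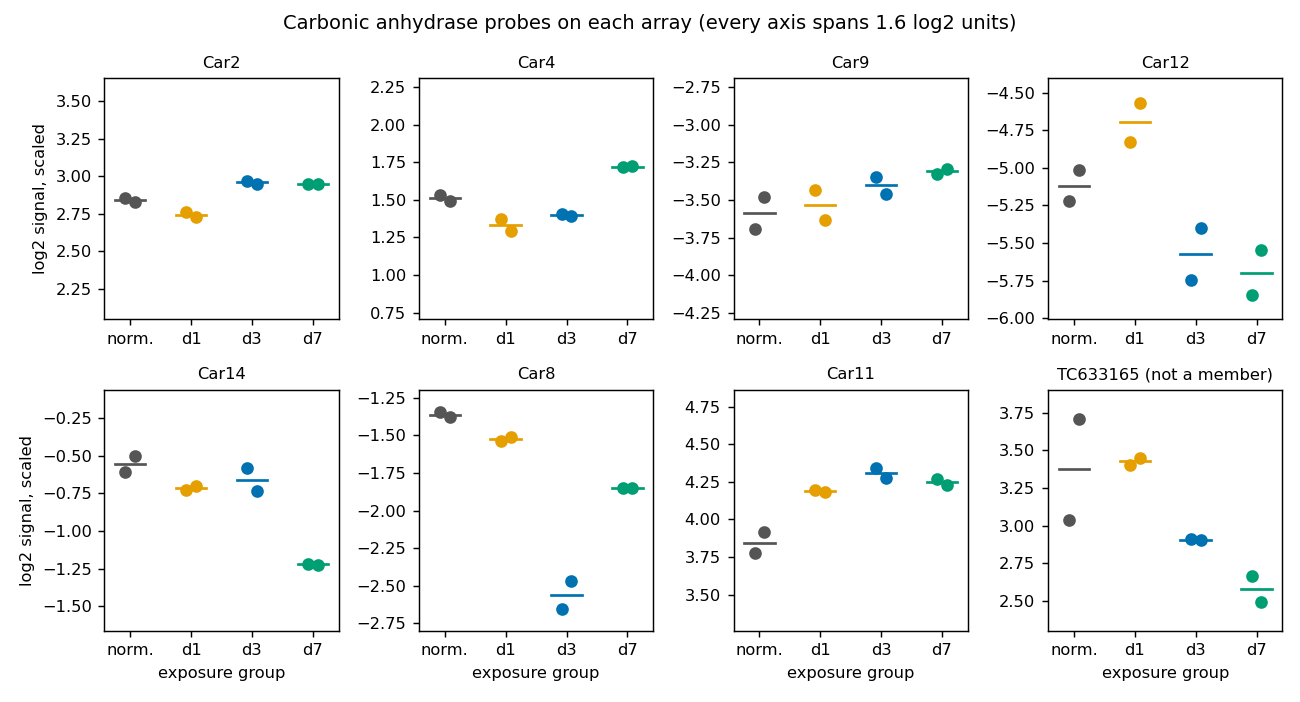
Log2 signal, scaled to each array's 75th percentile, of the 7 carbonic anhydrase probes and of probe TC633165 on every array; points are arrays, bars group means of 2 arrays, and every axis spans 1.6 log2 units. Car8 drops from -1.35 and -1.38 in normoxia to -2.65 and -2.47 on day 3, and Car14 leaves its earlier range on day 7 alone.

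Car8, the Itpr1-binding protein, is described first among the non-catalytic genes. Its scaled log2 signal was -1.35 and -1.38 under normoxia, -1.54 and -1.51 at day 1, -2.65 and -2.47 at day 3, and -1.85 on both day 7 arrays. No 2 groups overlapped, and both day 3 arrays lay far below all others. In unscaled signal the day 3 arrays read 272 and 283, and those of normoxia 1056 and 893. Car8 fell by 1.20 ± 0.07 on day 3 (limma adjusted p = 2.4e-04) and by 0.49 ± 0.07 on day 7 (adjusted p = 0.0019). The day 1 change of -0.16 ± 0.07 was not called (adjusted p = 0.12), but was with either day 3 array left out of the fit (adjusted p = 0.040 each). Day 3 was below day 1 by 1.04 (2.05-fold, adjusted p = 3.1e-04), and day 7 was above day 3 by 0.71 ± 0.07 (adjusted p = 0.0015). Car8 was the only one of the 7 genes past a fold of 2 with a call, on day 3 against normoxia (7.09% of all genes) and against day 1 (6.48%). None of the 7 passed both limits in the other comparisons, where 3.57% of all genes did on day 1, 11.4% on day 7 and 3.05% from day 3 to day 7. Among genes of its own level decile, 5% changed by -0.81 or less on day 3. Over 20 alternative settings the day 3 change lay between -1.29 and -1.03 and was called in all 20. On day 7 the call was lost under median centring of the arrays, at -0.19 (adjusted p = 0.077).

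Because Car8 is best known from cerebellar Purkinje cells, a list of Purkinje and cerebellar markers was read beside it. Of 5 tested markers, 1 rose and 2 fell on day 3, and 0 rose and 2 fell on day 7. Under quantile normalization, cyclic loess and normexp, 1 rose and 1 fell on day 3. For day 7, normexp gave 3 higher and 1 lower, and quantile normalization, cyclic loess and median centring each gave 1 and 1. The sum of their levels was 0.47 on both day 3 arrays and 0.48 to 0.50 on day 1, against 0.86 in normoxia. Cbln1, a synaptic organiser of cerebellar granule cells, fell by 1.01 on day 1, by 1.16 on day 3 and by 1.35 on day 7. The part of such markers in the Car8 values was not tested. The named genes whose centred profiles over the 8 arrays lay closest to that of Car8 were Bnip1, Pcdha3 and Plscr5, at root mean square distances of 0.07, 0.09 and 0.10 log2. Their changes on day 3 were -1.12, -0.98 and -1.20.

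Itpr1, the receptor that Car8 binds, moved the other way. It rose by 0.57 ± 0.05 on day 1 (limma adjusted p = 0.0010), by 0.63 on day 3 and by 0.78 on day 7 (adjusted p = 1.3e-04), and it was called higher in all 20 alternatives of each comparison. Itpr2, another receptor of the family, fell by 0.76 ± 0.09 on day 3 (adjusted p = 0.0017) and by 0.83 on day 7. Of the 6 receptor and neurexin genes read as partners of the non-catalytic proteins, 1 rose and 1 fell on day 1, 3 rose and 1 fell on day 3, and 4 rose and 1 fell on day 7. Their median change was 0.23 on day 3 and 0.38 on day 7. Under quantile normalization and cyclic loess the rises were 1 on day 3 and 2 on day 7.

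Car11, a secreted protein without catalytic activity, had a scaled log2 signal of 3.78 and 3.92 under normoxia, 4.19 on both arrays at day 1, 4.34 and 4.28 at day 3, and 4.27 and 4.23 at day 7. All 6 exposed arrays lay above both normoxia arrays. Car11 rose by 0.34 ± 0.06 on day 1 (limma adjusted p = 0.0091), by 0.46 on day 3 (adjusted p = 0.0021) and by 0.40 on day 7 (adjusted p = 0.0023). The day 3 and day 7 groups lay within 0.06 of each other, with a 95% interval of the difference from -0.21 to 0.08. The unscaled signal read 36784 and 35032 in normoxia, 40497 and 40875 at day 1, 34708 and 30406 at day 3, and 27069 and 26133 at day 7, so before scaling only the day 1 arrays stood above normoxia. Car11 belongs to the brightest decile of genes, whose median change was -0.01 at day 1, 0.18 at day 3 and 0.36 at day 7, so at day 7 it lay close to genes of like brightness. The day 7 rise was not called under quantile normalization (0.12, adjusted p = 0.071) or cyclic loess (0.07, adjusted p = 0.28), and the day 3 rise was called in all 20 alternatives. On day 1 the call was lost without day 1 replicate 1 (adjusted p = 0.055) or without day 1 replicate 2 (adjusted p = 0.052).

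The neurexins, presynaptic receptors that bind Car11 and Car10, were read next to it. Nrxn2 fell by 0.28 ± 0.05 on day 1 (limma adjusted p = 0.013) and rose by 0.31 on day 3 and 0.41 on day 7. Its day 1 fall was not called under normexp, nor its day 3 rise under quantile normalization or cyclic loess. Nrxn3 rose by 0.27 ± 0.04 on day 3 and by 0.59 on day 7 (adjusted p = 2.2e-04), but its direction turned in some alternatives, down to -0.17 on day 3 and -0.03 on day 7.

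**Figure D2:**
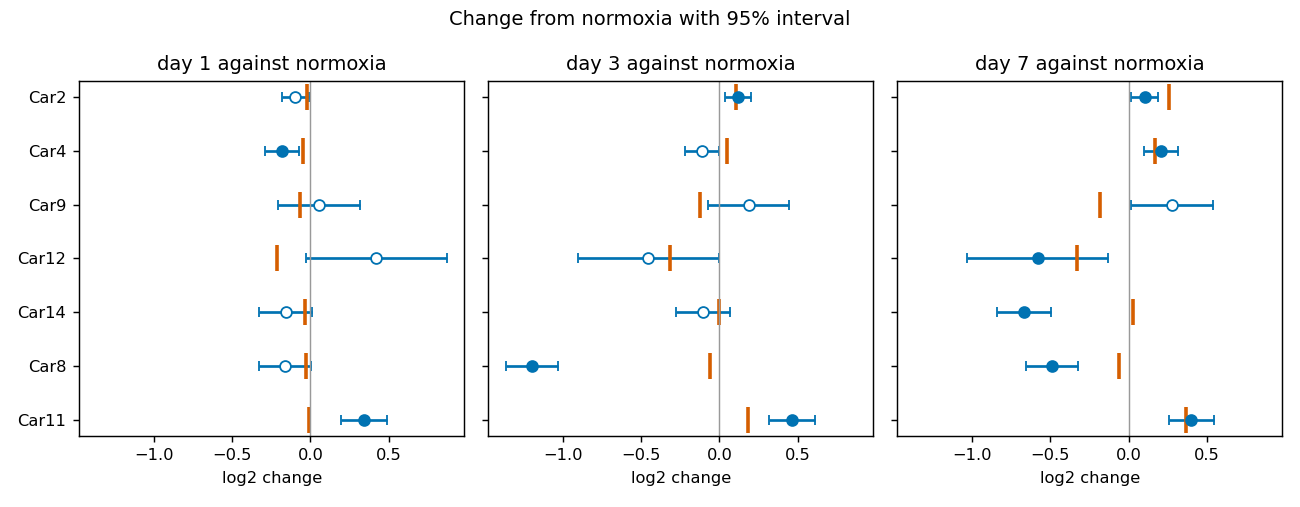
Log2 change from normoxia of each carbonic anhydrase gene on days 1, 3 and 7 with its 95% interval from the fit; filled points were called at an adjusted p under 0.05, and the orange tick is the median change of all genes in the same level decile. Car8 on day 3 and Car14 on day 7 lie far from their ticks, while Car4 and Car11 on day 7 lie next to theirs.

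Among the membrane enzymes, Car14, whose catalytic domain faces the extracellular space of neurons and glia, had a scaled log2 signal of -0.61 and -0.50 under normoxia, -0.72 and -0.70 at day 1, -0.58 and -0.74 at day 3, and -1.22 and -1.23 at day 7. The arrays of the first 3 groups lay close together, and both day 7 arrays lay below all of them. Car14 fell by 0.67 ± 0.07 on day 7 (1.59-fold, limma adjusted p = 6.3e-04), and day 7 was below day 3 by 0.56 (adjusted p = 0.0028). On day 1 its change was -0.16, with an interval from -0.33 to 0.01, and on day 3 it was -0.10, with an interval from -0.27 to 0.07; neither was called. The day 7 fall was called in all 20 alternatives, between -0.79 and -0.37. Of 11 astrocyte markers, 7 rose and 4 fell on day 7 (4 and 7 under cyclic loess, 4 and 6 under quantile normalization). The summed level of the 11 was 240 to 263 in normoxia and 308 to 312 on day 7, while Gfap, the astrocyte filament protein, fell by 1.96. The part of astrocytes in the Car14 values was not tested. The named genes closest to Car14 in profile were Mterfd2, Nop9 and Tpm2, at distances of 0.06, 0.06 and 0.07 log2 over the 8 arrays.

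Car4, which is anchored to the outer face of brain capillary endothelium, had a scaled log2 signal of 1.53 and 1.49 under normoxia, 1.37 and 1.29 at day 1, 1.41 and 1.40 at day 3, and 1.72 on both day 7 arrays. The normoxia arrays lay above those of days 1 and 3 and below those of day 7. Car4 fell by 0.18 ± 0.04 on day 1 (limma adjusted p = 0.025), changed by -0.11 on day 3 without a call (adjusted p = 0.078) and rose by 0.21 ± 0.04 on day 7 (adjusted p = 0.0085). The rise from day 3 to day 7, 0.32 ± 0.04 (adjusted p = 0.0037), was called in all 20 alternatives. The comparisons with normoxia were not that firm: the day 7 rise was lost at 0.07 under quantile normalization and under cyclic loess, and genes of its level decile had a median of 0.17. The day 3 change was called lower under quantile normalization (-0.16), cyclic loess (-0.17) and normexp (-0.24). Leaving out either normoxia array, or day 1 replicate 2, ended the day 1 call (adjusted p = 0.11, 0.069 and 0.12). Of 16 endothelial markers, 6 rose and 4 fell on day 1, and 9 rose and 4 fell on day 7. Day 3 gave 8 higher and 4 lower. The median change of these markers was slightly negative at day 1 (-0.04) and positive at day 3 (0.24) and day 7 (0.48). Pecam1, an adhesion molecule of endothelial cells, rose far more than this median, by 2.47 on day 1, by 1.88 on day 3 and by 1.54 on day 7. The summed level of the 16 was 28.9 to 30.2 under normoxia, 41.4 to 42.0 at day 1, 44.5 to 46.5 at day 3 and 46.6 to 47.4 at day 7; its part in the Car4 values was not tested.

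Car12, a membrane enzyme and HIF target, had a dim probe, with 71.8 signal units on both normoxia arrays and 24.5 to 29.8 on day 7. Its scaled log2 signal was -5.22 and -5.01 under normoxia, -4.83 and -4.57 at day 1, -5.74 and -5.40 at day 3, and -5.85 and -5.55 at day 7. The day 1 arrays were the highest and days 3 and 7 overlapped each other at the bottom. Day 3 was below day 1 by 0.87 ± 0.18 (limma adjusted p = 0.011), and Car12 fell by 0.58 on day 7 against normoxia (adjusted p = 0.036). Dim genes of its level decile fell as well, with a median change of -0.22 on day 1, -0.31 on day 3 and -0.33 on day 7. For Car12 the day 1 change of 0.42 (adjusted p = 0.13) and the day 3 change of -0.45 (adjusted p = 0.086) were not called. Under normexp background correction the day 7 change of Car12 turned to 0.24 (adjusted p = 0.079) and day 3 against day 1 shrank to -0.13. The day 7 call was also lost without normoxia replicate 1 (adjusted p = 0.068), normoxia replicate 2 (adjusted p = 0.16) or day 7 replicate 1 (adjusted p = 0.15), and the fall from day 1 to day 3 without day 1 replicate 2 (adjusted p = 0.060). Car12 is also a choroid plexus gene. Of 20 choroid plexus markers 18 fell on day 1 and 19 on day 7, with 6 higher and 7 lower on day 3; 11 of 20 were well above background on both arrays of day 1 and 8 of 20 on both of day 7. The 12 striatal markers rose on day 1. The part of either tissue in the Car12 values was not tested. The closest named genes in profile were Stard8, Dach2 and Pcdhb13, at distances of 0.08, 0.11 and 0.13 log2.

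Car9, the membrane enzyme most used as a marker of hypoxic tissue, had a scaled log2 signal of -3.69 and -3.48 under normoxia, -3.43 and -3.63 at day 1, -3.34 and -3.46 at day 3, and -3.33 and -3.29 at day 7. Day 1 overlapped normoxia, while both later groups lay just above it. Its change was 0.06 at day 1 (limma adjusted p = 0.71, 95% interval from -0.21 to 0.32), 0.19 at day 3 (adjusted p = 0.19) and 0.28 ± 0.10 at day 7 (adjusted p = 0.064, interval from 0.02 to 0.54 before adjustment). None was called as processed here. The day 7 value was called in 6 of 20 alternatives. Among them, it was called at 0.57 under quantile normalization, cyclic loess and median centring and at 0.43 under normexp. The day 3 value was called in the same 4 settings, at 0.29 to 0.40. Without normoxia replicate 2 the day 7 change was 0.38 and was called (adjusted p = 0.047). On day 1, 20 of 24 HIF targets outside the family rose, with a median change of 0.38, beside 15.3% of all genes called higher. Vegfa, the vascular endothelial growth factor, rose by 2.68 ± 0.07 and Adm, a vasodilator peptide, by 1.80. On day 3, 13 of the HIF targets rose and 3 fell, with a median of 0.43, beside 24.2% of all genes higher. On day 7, 14 rose and 5 fell, with a median of 0.22, beside 31.5% of all genes higher. The spots of the Car9 probe on an array differed with an SD of 0.60 to 0.93 log2.

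Promoter sequence was available for 6 of the 8 genes (RefSeq, build GRCr8, 250 bases before to 50 after the annotated start), not for Car2 or Car8. Since HIF binds DNA at ACGTG or GCGTG, both were searched on both strands; ACGTG also lies inside the E-box CACGTG, which other factors bind. At least 1 match was found in 5 of the 6 promoters and in 41.6% of 33469 promoters of this length. Car12 held 4, Car4 held 2, Car9, Car11 and Car14 held 1 each, and Car10 held none. A stretch of 30 bases around the first match is shown for the HIF targets Car9 and Car12 and for Car14, with the matches in capitals.
Car9: ttatttccgatgCACGTacagcccgtccac
Car12: tcgacacaaccgACGTGCACGCtttggtcc
Car14: cacccccctcctCACGTacaccggttccga
The stretches lie at chr5:62559013-62559042 (plus strand), chr8:76169813-76169842 (plus strand) and chr2:186138201-186138230 (minus strand) of GRCr8. In the Car9 window the match begins at position 252, where position 251 is the annotated start, and in Car12 the first begins at position 261.

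Car2, the cytosolic enzyme, had a scaled log2 signal of 2.85 and 2.83 under normoxia, 2.76 and 2.73 at day 1, 2.97 and 2.95 at day 3, and 2.95 on both day 7 arrays. Its whole range over the 4 group means was 0.22, the smallest of the 7 genes. Day 3 was above day 1 by 0.22 ± 0.03 (limma adjusted p = 0.0045). Car2 was called higher than normoxia by 0.12 on day 3 (adjusted p = 0.033) and by 0.10 on day 7 (adjusted p = 0.042), a 1.09-fold and a 1.07-fold difference, and the day 1 change of -0.10 was not called (adjusted p = 0.081). These small calls turned with the scaling: on day 7 the change was -0.14, called lower, under quantile normalization and under cyclic loess, and 0.40 under median centring. Leaving out any single array, of any group, ended the calls on day 3 (adjusted p from 0.050 to 0.13) and on day 7 (0.072 to 0.15). Car2 marks oligodendrocytes, choroid plexus and red blood cells, whose markers were read beside it. Of 21 oligodendrocyte markers, 3 rose and 14 fell on day 3, and 6 rose and 12 fell on day 7 (8 and 8 under median centring). Their summed level was 241 to 273 in normoxia, 282 to 289 on day 3 and 303 to 308 on day 7. Of 11 red blood cell markers, 10 rose on each of these days, and their summed level was 164 to 180 in normoxia and 550 to 563 on day 7; the part of these cells in the Car2 values was not tested.

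One further probe, TC633165, carries a description as similar to carbonic anhydrase II and was looked at after its values were seen. It lies at chr2:88092331-88092390 on the minus strand of rn4, 14533 bases from the Car2 probe. Its scaled log2 signal was 3.04 and 3.71 under normoxia, 3.41 and 3.45 at day 1, 2.91 and 2.90 at day 3, and 2.67 and 2.49 at day 7. The normoxia arrays were far apart, and the 4 arrays of days 3 and 7 lay below all others. It fell by 0.79 ± 0.22 on day 7 (limma adjusted p = 0.025), where the Car2 probe rose as processed here but was called lower under quantile normalization and cyclic loess. The call was lost without day 7 replicate 1 (adjusted p = 0.058) or replicate 2 (adjusted p = 0.10) and under median centring (adjusted p = 0.088). Without normoxia replicate 1, a day 3 fall of 0.80 was called as well (adjusted p = 0.0064).

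**Figure D3:**
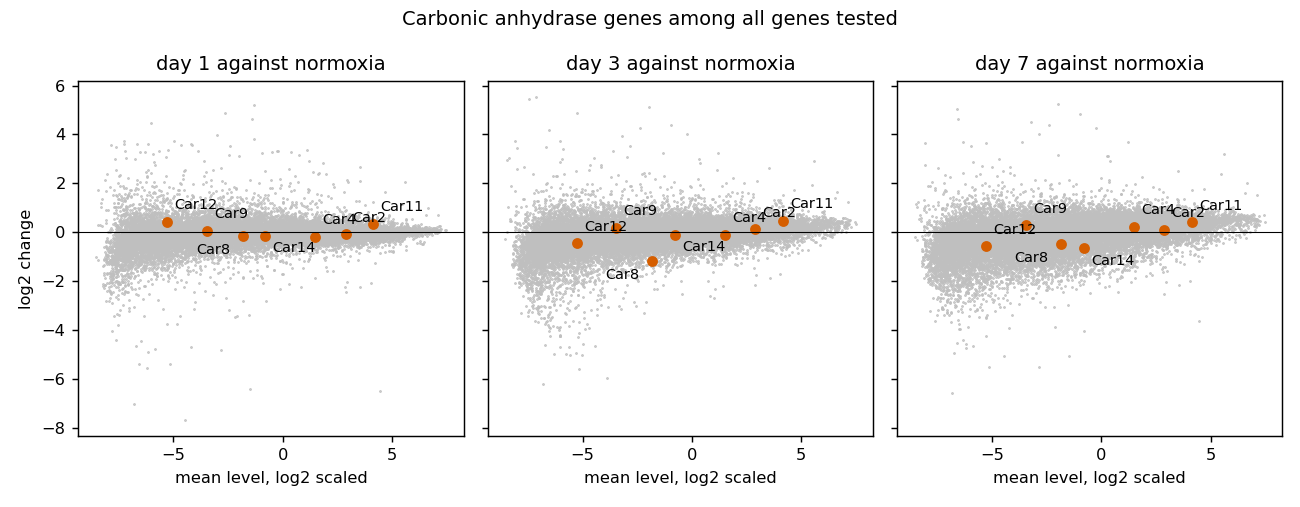
Log2 change from normoxia against the mean scaled level of each of the 21296 genes tested (grey) with the 7 carbonic anhydrase genes marked in orange, for days 1, 3 and 7. Bright genes sit higher than dim ones on days 3 and 7, and Car8 on day 3 lies at -1.20, below the -0.81 that marks the lowest 5% of its level decile.

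Other catalytic members of the family were read from a list of the remaining carbonic anhydrase names. Of 7 tested, 1 rose on day 1, 2 rose on day 3, and 3 rose and 1 fell on day 7, with median changes of -0.10, 0.05 and 0.07. Car6, the secreted isoenzyme, rose by 0.49 ± 0.04 on day 1 (limma adjusted p = 8.0e-04), by 0.36 on day 3 and by 0.37 on day 7. These values come from its brighter probe, which was highest on day 1. A dimmer Car6 probe had scaled means of -3.22 in normoxia, -3.02 on day 1 and -2.79 on both later days, so it was highest later. Car7, a cytosolic enzyme of neurons, rose by 0.45 on day 3 and by 0.47 ± 0.04 on day 7 (adjusted p = 3.3e-04), with -0.03 on day 1. Car5b, a mitochondrial enzyme, rose by 0.48 ± 0.07 on day 7 (adjusted p = 0.0027). These calls of Car6, Car7 and Car5b held in all 20 alternatives. Car5a, the other mitochondrial enzyme, was the one called lower on day 7, but its probe was not well above background on any exposed array. Ptprg, a receptor phosphatase with an inactive carbonic anhydrase domain, rose by 0.34 on day 1, by 0.67 ± 0.04 on day 3 (adjusted p = 3.7e-04) and by 0.54 on day 7, and the call held in all 20 alternatives of each comparison. Ptprz1, the other such phosphatase, had changes of -0.15, -0.14 and -0.12 without a call, and was called lower on days 3 and 7 under quantile normalization and cyclic loess.

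Bicarbonate made by these enzymes crosses membranes through the Slc4 and Slc26 transporters. Of 14 tested, 3 rose and 6 fell on day 1, 3 rose and 3 fell on day 3, and 5 rose and 2 fell on day 7. Slc4a3, an anion exchanger of neurons, fell by 0.40 on day 1, by 0.43 on day 3 and by 0.26 on day 7. Its day 7 fall did not hold under median centring, where the list had 7 higher and 1 lower on that day. Normexp gave 6 and 1 there, quantile normalization 7 and 3, and cyclic loess 6 and 3. Slc4a1, the anion exchanger of red blood cells, rose by 3.53 on day 1 and by 4.40 ± 0.08 on day 7, beside the red blood cell markers given above. Of 18 proton and lactate transporters, 3 rose and 9 fell on day 1, 6 rose and 3 fell on day 3, and 6 rose and 5 fell on day 7. Other scalings moved the later counts: on day 3 median centring and normexp each gave 10 higher and 2 lower, and on day 7 they gave 9 and 3 and 11 and 3, with 10 and 5 under quantile normalization. Slc16a3, the lactate exporter that HIF induces, rose by 2.49 ± 0.04 on day 1, and Slc9a2, a sodium-proton exchanger, rose by 0.99 on day 7. The rise of Slc16a3 on day 1 was larger than any change of the 7 carbonic anhydrase genes.

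**Figure D4:**
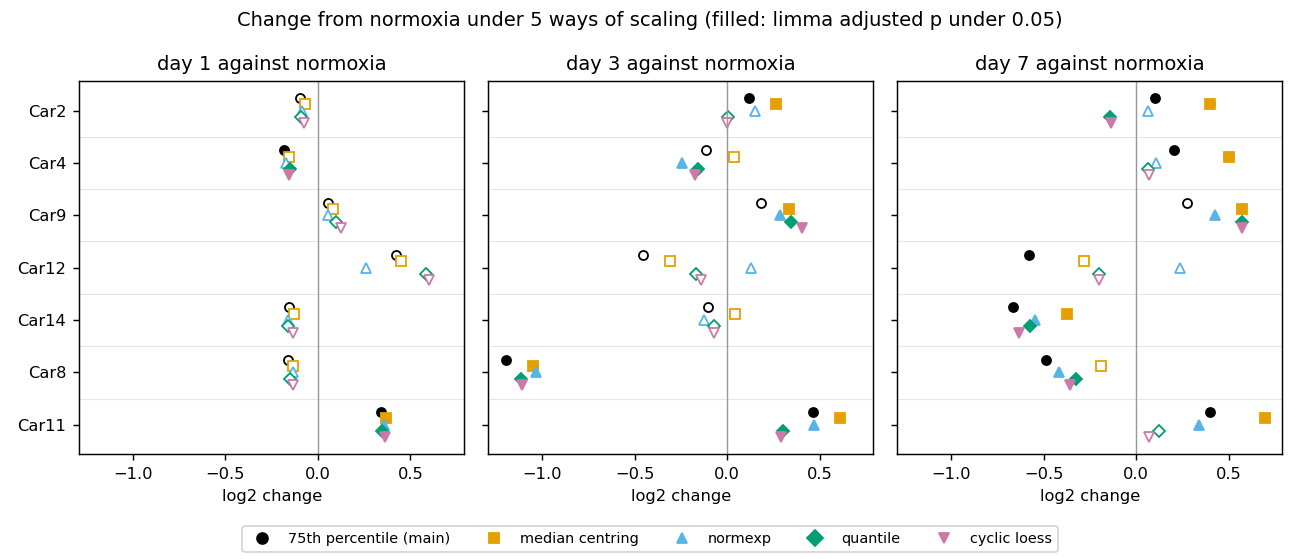
Log2 change from normoxia of the 7 genes under 5 ways of scaling or background correction; filled symbols were called at a limma adjusted p under 0.05. Car8 on day 3, Car14 on day 7 and Car11 on day 3 stay filled and on the same side under all 5, while Car2 and Car12 cross zero on day 7.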

How the data were processed

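The authors hybridised 8 samples to single-colour arrays. Each deposited file gives the intensity of every spot after background subtraction, with its raw mean and local background, as written by Agilent Feature Extraction (version 11.5.1.1, per the file headers). No scaling between arrays had been applied to these intensities. The deposited series values are log2. After each array's median offset was removed, 96.7% to 97.4% of them lay within 0.05 of log2 signal minus the array's 75th percentile. The share therefore does not test the constant subtracted from each array.

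Outlier spots were dropped, log2 signals averaged per probe, and arrays scaled by subtracting the 75th percentile of their 30367 probes. A probe was kept if 1 or more groups had both arrays well above background (24678 probes), and the brightest per gene was used, giving 21296 genes. Group means were compared with limma 3.58.1 in R 4.3.3 (lmFit, eBayes; two-sided; 5 comparisons), tested on simulated data first. Plots used matplotlib 3.10.9. Arrays numbered alike did not deviate together (correlations -0.15 to 0.05), so they were not paired. Precision is limited by 2 arrays per group.

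The genes, marker lists and tests were chosen with earlier results of these data known. All 8 genes are accounted for, with counts per list, up to 4 list genes of smallest p, and the 3 nearest profiles of the 3 genes of widest range. Alternatives were other scalings, background correction, filters, probe averaging, an intensity trend, 2 groups only, a replicate block, a fold threshold and leaving out each array. Cyclic loess and a percentile over spots were added after the data were seen.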

Additional observations from a re-analysis of the deposited data

Results flagged for a closer look

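Changes of 5 genes differed between exposure groups, tested as the difference between consecutive groups in limma, which equals the difference of their changes from the shared normoxia arrays. From day 1 to day 3 the differences were -1.04 for Car8 (adjusted p = 3.1e-04), -0.87 for Car12 (adjusted p = 0.011) and 0.22 for Car2 (adjusted p = 0.0045). From day 3 to day 7 they were 0.71 for Car8 (adjusted p = 0.0015), -0.56 for Car14 (adjusted p = 0.0028) and 0.32 for Car4 (adjusted p = 0.0037). Car8 is the one gene that differed in both steps, in opposite directions.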

How the results depend on the processing

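The results that kept their call and direction under all 20 alternatives were Car8 on day 3 (against normoxia and day 1) and from day 3 to day 7, Car14 on day 7 (against both), Car4 from day 3 to day 7, and Car11 on day 3 against normoxia. Not all 20 could move a change. With 1 probe per gene, the filters, probe averaging, intensity trend, 2 groups only and replicate block could alter only the p-values. So could leaving out an array of a group not compared. The deposited values are scaled nearly as here. Counts of called genes on day 1 were 1 under median centring, 1 under normexp and 1 with the 2 groups only, against 2 as reported; leaving out 1 array gave 0 to 3. With a fold of at least 2 as well, the counts were 0 on day 1, 1 on day 3, 0 on day 7, 1 for day 3 against day 1 and 0 for day 7 against day 3. Median centring gave 5 called for day 3 against day 1, and quantile normalization and cyclic loess gave 5 each for day 7 against day 3. Leaving out 1 array gave 2 on day 3, 4 to 5 on day 7, 2 to 3 for day 3 against day 1 and 3 for day 7 against day 3.

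Directions turned in these cases, and the cause was not tested. Under median centring they were Car11 (0.084), Car12 (0.023) and Car2 (0.13) from day 3 to day 7, and Car14 (0.043) and Car4 (0.036) on day 3. Under normexp they were Car12 on day 3 (0.13), on day 7 (0.24) and from day 3 to day 7 (0.11), and Car4 from day 1 to day 3 (-0.073). Under quantile normalization and cyclic loess they were Car11 from day 1 to day 3 (-0.041 and -0.071), Car4 from day 1 to day 3 (-0.0061 and -0.014) and Car2 on day 7 (-0.14 under both); under cyclic loess Car2 on day 3 was at -3.7e-05. With the percentile over spots they were Car14 (-0.019) and Car4 (-0.0017) from day 1 to day 3, and Car2 on day 7 (-0.019). Without 1 array they were Car12 from day 3 to day 7 (-0.30 to 0.046, positive without day 3 replicate 2 or day 7 replicate 1), Car14 from day 1 to day 3 (-0.025 to 0.13, negative without day 3 replicate 1), Car9 on day 1 (-0.050 to 0.16, negative without day 1 replicate 1 or normoxia replicate 1) and TC633165 on day 1 (-0.28 to 0.39, negative without normoxia replicate 1).

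The replicate number as a block, although the numbers did not pair the arrays, gave 3 called on day 1, 4 on day 3, 5 on day 7, 3 for day 3 against day 1 and 3 for day 7 against day 3. Median centring and normexp raised the median change of all genes on day 7 to 0.26 and 0.22 from -0.03. Called genes split into 6717 higher and 6327 lower on day 7 as reported, 10115 and 3730 under median centring, 10271 and 4093 under normexp, and 5192 and 7766 with the percentile over spots. On day 3 the splits were 5146 and 5573, 7574 and 3786, 7595 and 3599, and 4164 and 6547, in the same order. From day 1 to day 3 they were 6008 and 4905, 8093 and 3654, 8032 and 3322, and 4686 and 5767, and from day 3 to day 7 they were 5146 and 3888, 8414 and 2487, 4540 and 2658, and 3895 and 4516. The Car12 probe read only 24.5 to 94.8 signal units.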
